A study of Mus musculus with 12 samples.

Results

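A set of 10 genes that mark neutrophils was followed heart by heart in mice given cisplatin, with or without STING, an adaptor of cytosolic DNA sensing. The genes were taken by symbol from a matrix of 55885 genes: S100a8, S100a9, Retnlg, Csf3r, Cxcr2, Mmp8, Mmp9, Il1b, Ngp and Ltf. Of these 10 genes, 7 reached a TPM of 1 in 3 or more of the 12 hearts and entered the model with 13815 genes in all. Cxcr2, Ngp and Ltf stayed below that level and are given by their values and by exact permutation tests. TPM is a relative transcript level scaled for gene length and for the total of the library, so levels of different genes can be set side by side.

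RNA-seq was performed on heart tissue in 4 groups of 3. Saline hearts came from wild-type C57BL/6 mice without cisplatin, which the labels call untreated and the methods describe as the saline group. CDDP hearts came from wild-type C57BL/6 mice injected intraperitoneally with cisplatin at 6 mg/kg on days 1, 8 and 15. STING-/- hearts came from Tmem173-/- mice on the same background without cisplatin, and STING-/-+CDDP hearts from Tmem173-/- mice given the same cisplatin schedule. All mice were males, 8 weeks old, and hearts were collected on day 22, after echocardiography. The Tmem173 deletion is a bought germline line, present in every cell and not only in the heart or in neutrophils. The study names 6 mice a group, and which of them gave the 3 libraries is not stated, so the p-values measure the spread between these libraries. Sting1, the targeted gene (also called Tmem173), had a TPM of 2.87 to 5.96 in the 6 Tmem173-/- hearts and 5.62 to 22.11 in the 6 wild-type hearts. These ranges overlapped, and a level over the whole gene does not show whether the deleted part was read, so Sting1 is no full check of the labels.

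Neutrophils are short-lived white cells that mature in the bone marrow under granulocyte colony-stimulating factor, circulate in the blood and follow chemokines such as CXCL1 and CXCL2 through the receptor CXCR2. They fill their granules in order during maturation, primary granules before specific granules and these before gelatinase granules, and the mature cell keeps S100A8 and S100A9 in its cytosol in large amounts. Healthy heart muscle holds few of them, and they are among the earliest cells to enter injured muscle. In bulk tissue, more cells of a type and more RNA per cell cannot be told apart, and blood left in the vessels counts with the tissue.

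The cardiac identity of the libraries was clear, with 6 cardiomyocyte genes summing to a TPM of 11957 to 28649 in the 12 hearts. The first CDDP heart and the second STING-/- heart stood apart in the neutrophil genes, and results that rest on them are given with and without them. The first CDDP heart held the highest level of all 10 genes, and of 7.78% of all tested genes. Within the STING-/- group all 10 genes were highest in the second heart, which held the highest level of that group for 59.3% of all tested genes. Summed over the 10 genes, TPM was 1154.5 in the first CDDP heart and 98.7 in the second STING-/- heart, against 5.88 to 50.99 in the other hearts.

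**Figure D1:**
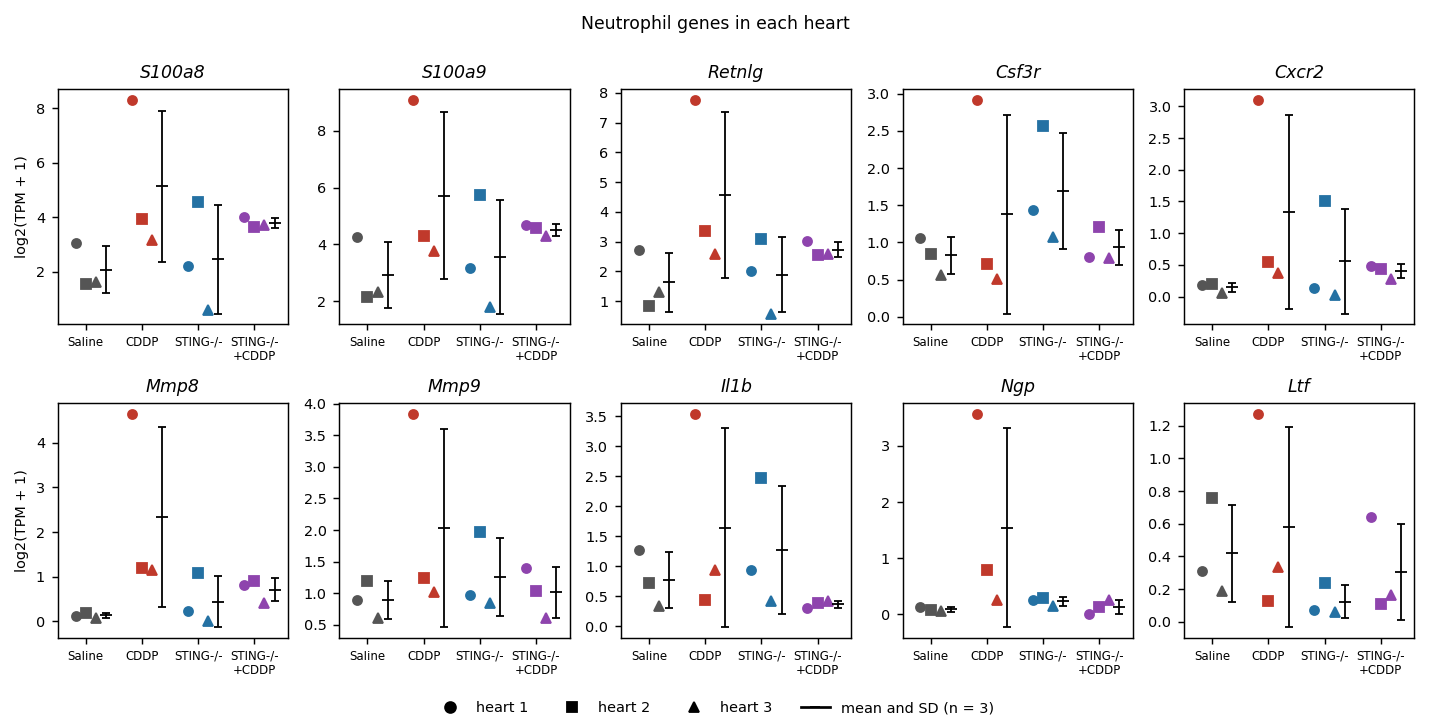
Levels of the 10 neutrophil genes in each of the 12 hearts, on a log2(TPM + 1) axis, by group. Each point is 1 heart, bars are the mean and SD of 3 hearts on that scale, and each panel has its own axis. In every panel the highest point is the first CDDP heart, and the second STING-/- heart is the highest of its group.

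S100a8 and S100a9 encode the subunits of calprotectin, a calcium- and zinc-binding protein that makes up much of the neutrophil cytosol and is released as an alarm signal at sites of inflammation. They lie close together on chromosome 3 in GRCm38, S100a8 from 90668978 to 90670035 on the plus strand and S100a9 from 90692632 to 90695721 on the minus strand, with 22596 bases between them. S100a8 had a TPM of 7.41, 1.94 and 2.06 for Saline, 316.2, 14.42 and 7.93 for CDDP, 3.68, 22.45 and 0.51 for STING-/- and 14.99, 11.38 and 12.26 for STING-/-+CDDP hearts. All 3 CDDP hearts were above all 3 Saline hearts, and the lowest of them, at 7.93, was close to the highest Saline heart, at 7.41. S100a9 had a TPM of 18.01, 3.45 and 4.0 for Saline, 546.94, 18.55 and 12.65 for CDDP, 7.88, 52.9 and 2.47 for STING-/- and 24.46, 22.87 and 18.37 for STING-/-+CDDP hearts. Its Saline and CDDP ranges overlapped, since the first Saline heart was above the third CDDP heart. The ratio of S100a8 to S100a9 stayed between 0.206 and 0.777 across the hearts, while the level of S100a8 itself ran from 0.51 to 316.2. The pair made up 50.7% to 80.4% of the summed TPM of the 10 genes in each heart.

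Retnlg, on chromosome 16 from 48872621 to 48874496, encodes a secreted resistin-like protein made by mature neutrophils in mice. The 3 hearts of each group read a TPM of 5.62, 0.80 and 1.5 for Saline, 216.71, 9.23 and 4.96 for CDDP, 3.0, 7.60 and 0.50 for STING-/- and 7.19, 4.93 and 5.04 for STING-/-+CDDP hearts. The level in the first CDDP heart was 23.5 times the next highest, and the remaining 11 hearts spanned 0.50 to 9.23 with overlap between all groups.

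Among the receptors, Csf3r encodes the receptor for granulocyte colony-stimulating factor and Cxcr2 the receptor for CXCL1 and CXCL2. Csf3r (chromosome 4, 126024550 to 126044440) had a TPM of 1.09, 0.80 and 0.48 for Saline, 6.55, 0.63 and 0.43 for CDDP, 1.70, 4.90 and 1.1 for STING-/- and 0.75, 1.31 and 0.73 for STING-/-+CDDP hearts. Apart from the first, the CDDP hearts lay within or below the Saline range, and the 3 STING-/- hearts lay above it, the third only just and the second furthest. Cxcr2 (chromosome 1, 74153989 to 74161246) had a TPM of 0.13, 0.15 and 0.04 for Saline, 7.59, 0.46 and 0.29 for CDDP, 0.10, 1.85 and 0.02 for STING-/- and 0.40, 0.35 and 0.21 for STING-/-+CDDP hearts. It passed a TPM of 1 in the first CDDP and the second STING-/- heart only, yet all 6 cisplatin hearts were above 5 of the 6 hearts without cisplatin.

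Mmp8, the neutrophil collagenase of the specific granules, and Mmp9, the gelatinase of the later granules, cut collagen and basement membrane. The TPM of Mmp8 (chromosome 9, 7558456 to 7568485) was 0.09, 0.14 and 0.06 for Saline, 24.17, 1.30 and 1.23 for CDDP, 0.17, 1.13 and 0.00 for STING-/- and 0.77, 0.86 and 0.33 for STING-/-+CDDP hearts. Each CDDP heart was above each Saline heart and above each STING-/-+CDDP heart, and as for Cxcr2 only the second STING-/- heart kept the cisplatin and the other hearts from separating. Mmp9 (chromosome 2, 164940780 to 164955850), which other cells of the heart can also make, had a TPM of 0.85, 1.29 and 0.52 for Saline, 13.34, 1.36 and 1.02 for CDDP, 0.96, 2.92 and 0.80 for STING-/- and 1.64, 1.05 and 0.52 for STING-/-+CDDP hearts. Its groups overlapped with the first CDDP heart and without it.

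Ngp and Ltf, which encode neutrophilic granule protein and the iron-binding lactoferrin, are specific-granule genes read mainly in the marrow before the cell leaves it. Ngp (chromosome 9, 110419747 to 110423012) had a TPM of 0.10, 0.05 and 0.04 for Saline, 10.91, 0.74 and 0.20 for CDDP, 0.19, 0.23 and 0.11 for STING-/- and 0.00, 0.10 and 0.19 for STING-/-+CDDP hearts. It was the gene for which the first CDDP heart exceeded the median of the other 11 by the most, 99.2 times, and it was below a TPM of 1 in every other heart. Ltf (chromosome 9, 111019271 to 111042767) peaked at 1.42 in the first CDDP heart, with no other heart over 0.69. Low values of this kind rest on few reads, and the depth behind a TPM is unknown.

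Il1b encodes the inflammatory cytokine interleukin-1 beta, which monocytes and macrophages make as well as neutrophils. Il1b was at a TPM of 1.40, 0.64 and 0.26 for Saline, 10.67, 0.36 and 0.92 for CDDP, 0.91, 4.54 and 0.33 for STING-/- and 0.23, 0.30 and 0.33 for STING-/-+CDDP hearts. Every STING-/-+CDDP heart was below every CDDP heart, by 0.03 between the nearest pair. On chromosome 2, Il1b (129364570 to 129371139, minus strand) overlaps Il1bos on the plus strand, and whether reads were counted by strand is not stated, so reads of this pair may be mixed.

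The excess of the first CDDP heart over the median of the other 11 hearts differed between the genes by over 10 times. It was 99.2 times for Ngp, 73.2 for Mmp8, 43.7 for Retnlg, 39.9 for S100a8, 36.1 for Cxcr2 and 30.4 for S100a9. The smaller excesses were 29.6 times for Il1b, 13.1 for Mmp9, 10.1 for Ltf and 8.19 for Csf3r. The second STING-/- heart, taken over the median of its own other 11 hearts, had its largest excess for Il1b at 12.6 times, Cxcr2 at 8.81 and Csf3r at 6.12. S100a8 and S100a9 stood there at 2.83 and 2.94 times, Ngp at 2.09, Retnlg at 1.53 and Ltf at 1.29.

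The sequences before the transcription starts of 5 of these genes are shown because they hold a match to the C/EBP-type motif TTGCNNAA with TTNNGCAA as its other-strand form, a motif of factors known from granulocyte maturation. Each is the 250 bases before the start in GRCm38.p6 from RefSeq, read 5′ to 3′ on the gene's strand, with the motif in capitals.
Ngp (chr9:110419558-110419807, plus strand): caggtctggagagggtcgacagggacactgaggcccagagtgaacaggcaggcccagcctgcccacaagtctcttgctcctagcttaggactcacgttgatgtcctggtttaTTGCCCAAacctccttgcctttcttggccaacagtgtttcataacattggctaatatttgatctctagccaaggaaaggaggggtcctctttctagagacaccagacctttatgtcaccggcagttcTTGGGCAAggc
Mmp8 (chr9:7558179-7558428, plus strand): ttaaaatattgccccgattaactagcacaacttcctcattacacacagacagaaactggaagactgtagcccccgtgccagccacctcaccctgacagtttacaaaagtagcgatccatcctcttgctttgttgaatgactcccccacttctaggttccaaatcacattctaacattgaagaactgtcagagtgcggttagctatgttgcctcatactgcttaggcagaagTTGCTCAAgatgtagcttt
S100a9 (chr3:90695722-90695971, minus strand): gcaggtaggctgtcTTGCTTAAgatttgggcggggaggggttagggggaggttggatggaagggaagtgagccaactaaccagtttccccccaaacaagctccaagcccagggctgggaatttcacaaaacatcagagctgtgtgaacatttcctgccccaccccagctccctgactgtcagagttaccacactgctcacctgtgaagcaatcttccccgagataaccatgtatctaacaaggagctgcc
Retnlg (chr16:48872358-48872607, plus strand): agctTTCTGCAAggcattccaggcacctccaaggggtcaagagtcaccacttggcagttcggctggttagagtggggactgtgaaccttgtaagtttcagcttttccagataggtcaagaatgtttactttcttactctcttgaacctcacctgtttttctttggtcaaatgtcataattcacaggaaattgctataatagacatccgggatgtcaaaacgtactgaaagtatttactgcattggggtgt
Ltf (chr9:111019042-111019291, plus strand): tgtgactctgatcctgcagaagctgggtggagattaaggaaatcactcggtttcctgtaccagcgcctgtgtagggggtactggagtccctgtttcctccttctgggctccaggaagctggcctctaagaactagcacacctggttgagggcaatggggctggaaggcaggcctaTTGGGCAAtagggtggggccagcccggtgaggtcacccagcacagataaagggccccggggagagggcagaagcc
Ngp held the motif at 2 places and Mmp8, S100a9, Retnlg and Ltf at 1 each. The RefSeq starts of Ngp and Ltf lie inside these genes as placed by the positions given above. By those positions the second Ngp match is also inside the gene and not before it. RefSeq promoters, from 250 bases before to 50 after the start, were found for 9 of the 10 genes, all but Mmp9. These 5 of the 9 held the motif on either strand, against 10.8% of all 32851 promoters. The PU.1-type motif GAGGAA with TTCCTC as its other-strand form was in 5 of the 9 as well, against 28.3% of all promoters, and only Mmp8 and Ltf held both. A match of these letters is a description of the sequence and not a binding site.

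The first comparison, CDDP against Saline hearts, asks what cisplatin changes in the wild-type heart. All 7 tested genes had a higher mean in the CDDP hearts, and 0 of 7 passed limma at an adjusted p under 0.05, where 18.9% of all tested genes passed in either direction and 8.52% passed as higher. At an unadjusted p under 0.05 there were 4 of 7, against 33.9% of all tested genes. The median log2 fold change was 2.20 over the 7 genes and -0.003 over all tested genes, on the log2(TPM + 1) scale, which understates the change of low genes. Mmp8 was nearest to the threshold, with a log2 fold change of 2.20 (SE 0.73) and a limma adjusted p of 0.0550. Retnlg followed with 2.93 (SE 1.1, adjusted p = 0.0856), then S100a8 with 3.06 (SE 1.20, adjusted p = 0.0974) and S100a9 with 2.81 (SE 1.28, adjusted p = 0.146). For these 3 genes the difference was large and so was the error, since the CDDP standard deviation of S100a8, 176, exceeded its mean TPM of 113. Mmp9 differed by 1.14 (adjusted p = 0.218), Il1b by 0.87 (adjusted p = 0.419) and Csf3r by 0.55 (adjusted p = 0.525). The groups did not overlap for 2 of the 7 tested genes, S100a8 and Mmp8, where 14.9% of all tested genes were non-overlapping and higher. Among the untested genes, Cxcr2 and Ngp were also non-overlapping. The exact two-sided permutation p was 0.1 for each of these 4 genes, the smallest that 3 against 3 hearts can give.

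The first CDDP heart decided the size of these differences. Without it the median over the 7 genes was 1.05 rather than 2.20, against 0.07 over all tested genes. The log2 fold change was 1.47 rather than 3.06 for S100a8, 1.12 rather than 2.81 for S100a9 and 1.33 rather than 2.93 for Retnlg without that heart, with limma adjusted p of 0.288, 0.455 and 0.207. Mmp8 differed by 1.05 without that heart and passed, with an SE of 0.31 rather than 0.73 and an adjusted p of 0.0438. Mmp8 reached a TPM of 1 in 4 hearts only, the 3 CDDP hearts and the second STING-/- heart. The expression filter was set over all 12 hearts in every fit, so the testing of Mmp8 depended on the group where it was high. Il1b and Csf3r turned to -0.078 and -0.22, and Mmp9 was at 0.23. Mmp8 also passed without the second CDDP heart (adjusted p = 0.0320), without the third (adjusted p = 0.0328) and with a pseudocount of 0.1 (adjusted p = 0.0244). Retnlg passed without the third CDDP heart (adjusted p = 0.0376).

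**Figure D2:**
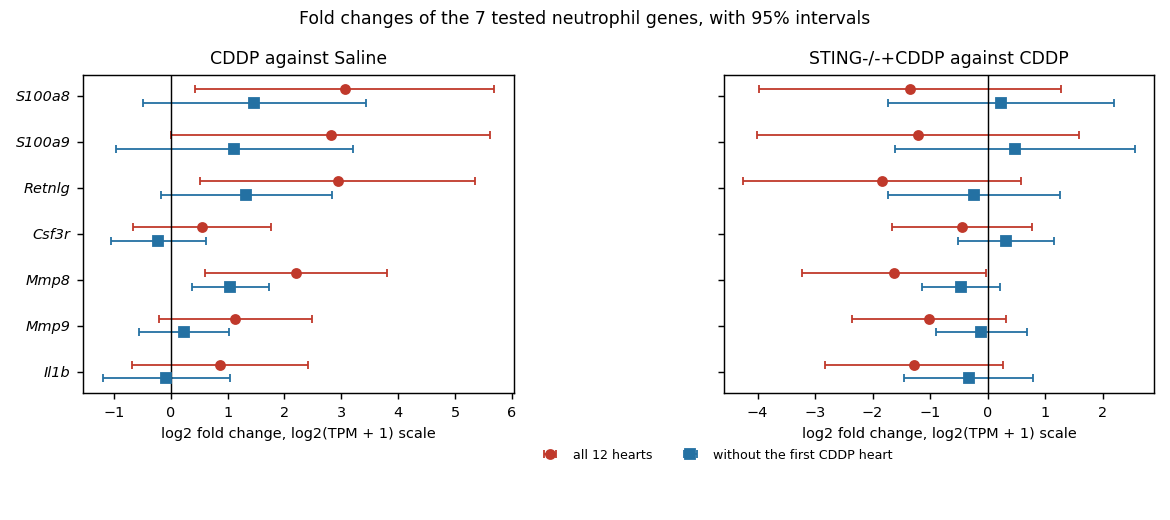
Log2 fold changes of the 7 tested genes with 95% intervals from limma, for CDDP against Saline hearts (left) and STING-/-+CDDP against CDDP hearts (right), with all 12 hearts (red circles) and without the first CDDP heart (blue squares). Without that heart the estimate for S100a8 moved from 3.06 to 1.47 in the left panel and from -1.35 to 0.23 in the right panel.

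STING-/-+CDDP against CDDP hearts asks what the loss of STING changes under cisplatin. All 7 genes had a lower mean in the STING-/-+CDDP hearts, with a median log2 fold change of -1.28 against -0.09 over all tested genes. Limma passed 0 of 7 here, and 1 of 7, Mmp8, had an unadjusted p under 0.05, against 19.8% of all tested genes. Of all tested genes 1.22% passed, and 0.854% passed as lower. Retnlg differed by -1.83 (adjusted p = 0.384), Mmp8 by -1.63 (adjusted p = 0.243) and S100a8 by -1.35 (adjusted p = 0.570). Il1b differed by -1.28 (adjusted p = 0.340), S100a9 by -1.21 (adjusted p = 0.642), Mmp9 by -1.02 (adjusted p = 0.384) and Csf3r by -0.44 (adjusted p = 0.704). The groups did not overlap for 2 of the 7, Mmp8 and Il1b, nor for the untested Ngp, where 15.6% of all tested genes were non-overlapping and lower. Without the first CDDP heart the median over the 7 genes was -0.11, against -0.17 over all tested genes, and with weights per heart it was -0.73. Retnlg differed by -0.23, Il1b by -0.33 and Mmp9 by -0.11 without that heart. S100a8, S100a9 and Csf3r turned to 0.23, 0.48 and 0.32, and Mmp8 stood at -0.47 (adjusted p = 0.441). The 3 STING-/-+CDDP hearts were close to one another in S100a8, 12.9 ± 1.88 (SD, n = 3), and the second and the third CDDP hearts, at 14.42 and 7.93, lay on either side of them.

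STING-/- against Saline hearts compares the genotypes without cisplatin. All 7 genes had a higher mean in STING-/- hearts, with a median log2 fold change of 0.38 against 0.002 over all tested genes. In limma 0 of 7 passed and every adjusted p was 1, where 0.0724% of all tested genes passed. At an unadjusted p under 0.05 there were 0 of 7, against 3.69% of all tested genes. Csf3r had the largest difference of the 7, 0.86 (SE 0.56), and did not overlap between the groups, nor did the untested Ngp, where 2.76% of all tested genes were non-overlapping and higher. Without the second STING-/- heart the median was -0.098, against -0.057 over all tested genes, and 5 of the 7 turned: S100a8 to -0.67, S100a9 to -0.44, Retnlg to -0.34, Il1b to -0.10 and Mmp8 to -0.019. Csf3r stayed above zero at 0.43 without that heart.

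STING-/-+CDDP against STING-/- hearts gives the cisplatin difference in the absence of STING, with the STING-/-+CDDP hearts in common with the comparison under cisplatin above. The log2 fold change was 1.33 for S100a8, 0.94 for S100a9, 0.84 for Retnlg and 0.27 for Mmp8. It was -0.25 for Mmp9, -0.75 for Csf3r and -0.91 for Il1b. Of the 7, 0 passed limma, where 0.934% of all tested genes passed and 0.68% passed as lower. At an unadjusted p under 0.05 there were 0 of 7, against 13.5% of all tested genes. None of the 10 genes was non-overlapping, against 24.2% of all tested genes in either direction. Without the second STING-/- heart S100a8 differed by 2.38 and S100a9 by 2.03. Their adjusted p-values over the hearts left out 1 at a time were at least 0.462 and 0.638.

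The interaction, the cisplatin difference in Tmem173-/- hearts less that in wild-type hearts, was negative for all 7 genes. It ran from -2.10 for Retnlg and -1.93 for Mmp8 to -1.39 for Mmp9 and -1.31 for Csf3r, with limma adjusted p-values of 0.488 to 0.720. The median was -1.78 over the 7 genes and -0.10 over all tested genes. Over the 7 genes it was -0.50 without the first CDDP heart, -1.03 without the second STING-/- heart and -0.88 with weights per heart, and without both hearts it was -0.10, against -0.11 over all tested genes. Here 0 of 7 passed, where 0.00724% of all tested genes did, and 0 of 7 had an unadjusted p under 0.05, against 11.7% of all tested genes. Without both the first CDDP and the second STING-/- heart, S100a8, S100a9 and Retnlg turned to 0.90, 0.91 and 0.11. A difference in the cisplatin response of the neutrophil genes between the genotypes was thus not shown, and its interval was wide: for S100a8 it ran from -5.45 to 1.99.

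Other genes of the same granules and cells were followed as lists. Of 6 further specific and gelatinase granule genes, 3 were tested and 1, Lcn2, was higher in CDDP hearts. Of all tested genes 8.52% passed as higher. The first CDDP heart held the highest level of 5 of the 6, as of 7.78% of all tested genes. Camp, the other gene, was at a TPM of 0.26 there, against 0.31 in the second Saline and 0.32 in the third STING-/- heart. Lcn2 encodes lipocalin-2, an iron-siderophore-binding protein of specific granules that heart and liver cells also make in inflammation. Lcn2 was at a TPM of 1.38, 15.00 and 12.95 for Saline, 985.5, 172.12 and 260.52 for CDDP, 24.91, 142.43 and 25.62 for STING-/- and 183.46, 165.62 and 125.57 for STING-/-+CDDP hearts. Lcn2 was far above Saline in all 3 CDDP hearts. The CDDP difference had a log2 fold change of 5.45 (SE 0.85, limma adjusted p = 0.00215) and of 4.72 without the first CDDP heart (adjusted p = 0.00669). The STING-/- and STING-/-+CDDP hearts overlapped in Lcn2, since the second STING-/- heart was above the third STING-/-+CDDP heart. In that comparison 0 of the 3 tested genes passed limma or had an unadjusted p under 0.05, against 13.5% of all tested genes for the latter. Chil3, which encodes the chitinase-like protein Ym1, and Pglyrp1, which encodes a peptidoglycan-binding granule protein, differed by 3.69 (adjusted p = 0.0560) and 1.22 (adjusted p = 0.0895).

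Of 14 further genes of mature neutrophils 9 were tested, and all 9 had a higher mean in CDDP hearts, as did 6876 of all 13815 tested genes. Of the 9, 2 passed, where 8.52% of all tested genes passed as higher. Clec4d, a C-type lectin receptor of myeloid cells, rose by 2.80 (SE 0.54, adjusted p = 0.00573), and by 2.36 without the first CDDP heart (adjusted p = 0.0191). Fpr1, the receptor for bacterial formyl peptides, rose by 1.24 (adjusted p = 0.0335), and differed by 0.93 without that heart (adjusted p = 0.105). In the first CDDP heart 12 of the 14 genes had their highest level. Ly6g, the usual surface marker of mouse neutrophils, had a TPM of 1.75 there, 1.02 in the third Saline heart and at most 0.34 elsewhere. Primary granule genes were little read: Ctsg and Ms4a3 were listed at 0 in all 12 hearts, Elane at 0 in all but 1, Mpo was at most 0.09 and Prtn3 at most 1.35. Thus 0 of 5 primary granule genes were tested, while S100a8 and S100a9 were read in all hearts.

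Of 8 attractants and growth factors of neutrophils 3 were tested and 2 rose in CDDP hearts, where 8.52% of all tested genes passed as higher. Cxcl1, a ligand of CXCR2, had a TPM of 4.15, 4.19 and 3.25 for Saline, 55.22, 13.49 and 16.55 for CDDP, 4.22, 6.84 and 1.73 for STING-/- and 6.72, 6.47 and 4.52 for STING-/-+CDDP hearts. Cxcl1 rose by 2.33 in CDDP hearts (SE 0.47, adjusted p = 0.00733), and by 1.72 without the first CDDP heart (adjusted p = 0.0119). Cxcl2, another ligand of that receptor, rose by 2.07 (SE 0.64, adjusted p = 0.0426), and differed by 1.11 without that heart (adjusted p = 0.0530). Outside the CDDP hearts Cxcl2 reached a TPM of 1 only in the second STING-/- heart (1.22) and the first STING-/-+CDDP heart (1.06). The testing of Cxcl2 thus depended on the group where it was high. Csf3, which encodes granulocyte colony-stimulating factor, peaked at 1.00 in the first CDDP heart, and Csf2 and Il17a were listed at 0 in all hearts. All 6 listed genes read at all were highest within the STING-/- group in its second heart, as were 59.3% of all tested genes.

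Among 6 endothelial adhesion genes, Icam1, which binds neutrophil integrins, rose by 1.77 (SE 0.50, adjusted p = 0.0302), and Icam2, present on resting endothelium, fell by 0.90 (adjusted p = 0.0223). Without the first CDDP heart Icam1 differed by 1.18 (adjusted p = 0.0801). Sele and Selp, the selectins on which neutrophils roll, peaked in the first CDDP heart at 22.84 and 32.14, with at most 2.90 and 9.66 elsewhere. Of 7 tested IL-1 system genes, Casp4, the sensor caspase for lipopolysaccharide, rose by 1.02 (adjusted p = 0.0436) and Pycard, the inflammasome adaptor ASC, fell by 0.87 (adjusted p = 0.0426). Neither passed without the first CDDP heart. Il1rn, the IL-1 receptor antagonist, was at 2.50 in the first CDDP heart and 2.37 in the second STING-/- heart, and at most 0.62 in the others.

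Among 7 tested matrix metalloproteinase and inhibitor genes besides Mmp8 and Mmp9, Timp1, an inhibitor of MMP9, rose by 2.22 (SE 0.69, adjusted p = 0.0441) and did not pass without the first CDDP heart (adjusted p = 0.120). The highest Timp1 level, 101.38, was in the second STING-/- heart. Of 8 tested S100 and receptor genes, Tlr4, a receptor for S100A8 and S100A9 as well as lipopolysaccharide, was the gene that passed in both comparisons with CDDP hearts. Tlr4 had a TPM of 5.30, 6.36 and 5.23 for Saline, 9.39, 11.65 and 12.63 for CDDP, 4.71, 7.10 and 5.02 for STING-/- and 4.98, 6.69 and 3.29 for STING-/-+CDDP hearts. It rose by 0.88 in CDDP against Saline hearts (SE 0.22, adjusted p = 0.0197) and, where the CDDP hearts were the reference, fell by 1.06 with STING loss (adjusted p = 0.0469). The fall passed in 7 of 24 alternatives, and of the 12 hearts left out singly it passed only without the second Saline heart (highest adjusted p over all alternatives 0.158). Its highest level was in the third CDDP heart, not the first. The other S100 genes tested, from S100a1 to S100a16, did not pass in any of the comparisons.

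Genes of other blood cells moved beside the neutrophil genes in ways that differed by cell type, and their part in the results above was not tested. The first CDDP heart led in all 5 platelet genes: Itga2b, the platelet fibrinogen receptor subunit, was at 16.77 there and at most 2.43 elsewhere, Gp9 at 11.50 against 0.76, and the chemokine gene Ppbp at 21.76 against 1.31. The second STING-/- heart held no such level, with Gp9 at 0.29 and Ppbp at 0.87. It was the highest of its group for all 5, as for 59.3% of all tested genes. Red blood cell genes went the other way. The 5 genes summed to a TPM of 4146 to 9317 for Saline, 41.95 to 1271 for CDDP, 263.67 to 1465 for STING-/- and 81.93 to 311.09 for STING-/-+CDDP hearts, and all 5 fell in CDDP hearts. Hemoglobin genes were 0.127% of all TPM in the first CDDP heart, below the 0.413% to 0.929% of the Saline hearts and above the 0.0141% and 0.0042% of the other CDDP hearts.

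In CDDP against Saline hearts 9 of 10 macrophage and 4 of 5 monocyte genes had a lower mean, as did 6937 of all 13815 tested genes. Of 10 macrophage genes 7 fell in CDDP hearts, among them Mrc1 by 1.72 (adjusted p = 0.00189), C1qc by 1.43 (adjusted p = 0.00536) and Csf1r by 1.81 (adjusted p = 0.00854), where 10.4% of all tested genes passed as lower. Without the first Saline heart 4 of the 7 passed, and Adgre1, Fcgr1 and C1qa did not. The 10 genes summed to 548.37 to 768.27 without and 191.29 to 353.63 with cisplatin in wild-type hearts. Of 5 monocyte genes 2 fell, Cx3cr1 by 2.18 (adjusted p = 8.02e-04) and F13a1 by 2.32 (adjusted p = 0.00262). In STING-/-+CDDP against STING-/- hearts Cx3cr1, Mrc1 and Fcgr1 fell, with log2 fold changes of -1.63, -1.5 and -1.39. None of these 3 passed without any one of the STING-/- hearts (highest adjusted p over all alternatives 0.0995, 0.117 and 0.106). The 4 pan-leukocyte genes summed to 62.8 to 114.23 for Saline and 40.48 to 87.75 for CDDP hearts, and 0 of 4 passed limma or had an unadjusted p under 0.05. Without the first CDDP heart Ptprc, Coro1a and Cd52 fell by 1.04, 1.06 and 1.33 (limma adjusted p = 0.0414, 0.0360 and 0.0435). Laptm5 did not pass there (adjusted p = 0.332). In STING-/-+CDDP against STING-/- hearts all 4 had a lower mean and 0 passed. An unadjusted p under 0.05 was met by 3 of 4, against 13.5% of all tested genes. The first CDDP heart, with the most neutrophil transcript, was the lowest of all hearts for Adgre1 at 2.82 and for C1qa at 41.81.

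**Figure D3:**
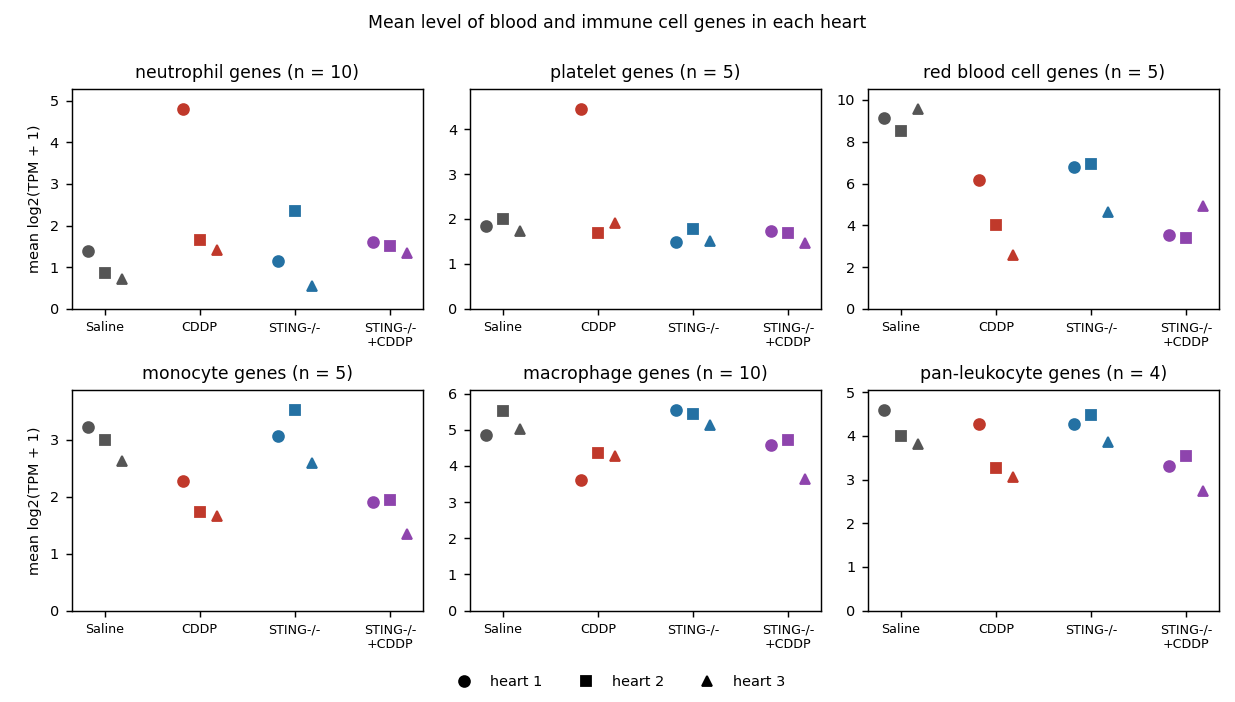
Mean log2(TPM + 1) of neutrophil, platelet, red blood cell, monocyte, macrophage and pan-leukocyte genes in each heart. Each point is 1 heart and each panel has its own axis from 0. The first CDDP heart is the highest in the neutrophil and platelet panels and the lowest in the macrophage panel, whereas the Saline hearts are the highest in the red blood cell panel.

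Mast cell genes included 1 of 4 that fell in CDDP hearts, Cma1 by 1.01 (adjusted p = 0.0412), and it did not pass without the first CDDP heart. Of 2 tested T cell and 3 tested platelet genes 0 passed limma in CDDP against Saline hearts, with 2 and 1 of them at an unadjusted p under 0.05. B cell and eosinophil genes did not reach the level for testing, and Epx was listed at 0 in all hearts. Of 6 cardiomyocyte genes Tnnt2 rose by 0.56 (adjusted p = 0.0137) and Actc1 fell by 3.55 (adjusted p = 0.00181). In 5 of the 6, all but Tnnt2, the first CDDP heart was the lowest of all hearts. The share of all tested genes that were lowest in that heart was not counted, so this count has no background. The sum of the 6 genes was 11957 there, against at least 17155 in every other heart. Low cardiomyocyte transcript thus stood beside high neutrophil transcript in that heart, and its part in the results was not tested.

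The profile over the 12 hearts nearest to the mean of the 10 genes, by Euclidean distance between scaled log2(TPM + 1) profiles, was that of Il1r2, the decoy receptor for interleukin-1, at a distance of 0.909. Il1r2 was at 41.22 in the first CDDP heart, 3.58 in the second STING-/- heart, 1.48 and 1.66 in the other CDDP hearts and at most 0.73 in the remaining 8. Hdc, which encodes the enzyme that makes histamine, came next at 0.997, then Grk5, a kinase of G protein-coupled receptors, at 1.03 and Chil3 at 1.17. Fen1, Cxcl2, Pglyrp1 and Bcr followed at 1.18 to 1.32. Il1r2, Hdc, Chil3, Cxcl2 and Pglyrp1 were on the lists above and Grk5, Fen1 and Bcr were not, and the nearness of a profile is a description that rests largely on the first CDDP heart.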

How the data were processed

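RNA-seq of 12 mouse hearts was analysed from a matrix of TPM that the authors deposited, with gene length in bases as a further deposited column of another kind. The submitters' processing notes name fastp, HISAT, RSEM and the genome build GRCm38.p5. Versions and strand setting are not given in the sources used here. TPM sum to the same total in each heart and keep no depth, so no counting interval could be given, and 19680 to 21024 genes were above 0. The 13815 genes that reached a TPM of 1 in 3 or more hearts were fitted as log2(TPM + 1) with limma 3.58.1 in R 4.3.3, with 4 groups, a mean-variance trend, 8 residual degrees of freedom and two-sided Benjamini-Hochberg adjusted p-values over all tested genes, at a threshold of 0.05. Single genes were also tested with exact permutation tests over hearts. The script was tested on simulated data.

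The genes followed and all lists were chosen with earlier results of these data known. Named genes were the 10 neutrophil genes, Sting1, up to 4 genes per list with the smallest adjusted p among those passing in CDDP against Saline or STING-/-+CDDP against CDDP hearts, list genes at 0 in all hearts, and the 8 nearest profiles. Other list genes named (Chil3, Pglyrp1, Ly6g, Elane, Mpo, Prtn3, Csf3, Sele, Selp, Il1rn, Fcgr1, Adgre1, C1qa and the platelet and pan-leukocyte genes) were chosen after their values were seen. Camp, Cxcr1 and Padi4 were likewise named after their values were seen. Positions are from GENCODE M21 (GRCm38), and promoters from RefSeq (GRCm38.p6).

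Alternatives were a pseudocount of 0.1, no filter or a TPM of 5, median-of-ratios and quantile scaling, TPM without mitochondrially encoded or hemoglobin genes, fits of the 2 groups alone, no trend, weights per heart, a replicate block, a fold threshold and each heart left out in turn. A fit without the first CDDP and the second STING-/- heart together was added after seeing the data.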

Additional observations from a re-analysis of the deposited data

How the results depend on the processing

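In CDDP against Saline hearts the number of neutrophil genes passing limma was 0 as reported, 1 (Mmp8) with a pseudocount of 0.1, with TPM without mitochondrially encoded genes and without the first CDDP and the second STING-/- heart together (adjusted p = 0.0244, 0.0473 and 0.0180), and 0 to 2 when hearts were dropped singly. It was 0 under every other alternative run, and 0 in the other 4 comparisons under all of them. The cause of these shifts was not tested.

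Without those 2 hearts together the sign turned for Il1b (-0.078) and Csf3r (-0.22) in CDDP against Saline, for Csf3r (0.32), S100a8 (0.23) and S100a9 (0.48) in STING-/-+CDDP against CDDP, for Mmp8 (-0.019), Retnlg (-0.34), Il1b (-0.10), S100a8 (-0.67) and S100a9 (-0.44) in STING-/- against Saline, for Mmp9 (0.10) in STING-/-+CDDP against STING-/- and for Retnlg (0.11), S100a8 (0.90) and S100a9 (0.91) in the interaction. With weights per heart Retnlg (-0.21) and S100a8 (-0.087) turned in STING-/- against Saline. Leaving out 1 heart at a time, the values that changed sign ranged from -0.078 to 1.47 for Il1b and -0.22 to 0.98 for Csf3r in CDDP against Saline. In STING-/-+CDDP against CDDP they ranged from -0.88 to 0.32 for Csf3r, -2.34 to 0.23 for S100a8 and -2.19 to 0.48 for S100a9. In STING-/- against Saline they ranged from -0.019 to 0.53 for Mmp8, -0.34 to 0.92 for Retnlg, -0.10 to 0.93 for Il1b, -0.67 to 1.31 for S100a8 and -0.44 to 1.54 for S100a9, and in STING-/-+CDDP against STING-/- from -0.46 to 0.10 for Mmp9.

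The hearts share replicate numbers across groups. Deviations of same-numbered hearts had r from -0.333 to 0.261, against -0.312 to 0.431 for differently numbered hearts. The sample titles give only the number. With so few hearts these values cannot show whether same-numbered hearts shared a day or a batch. With the replicate block 0 neutrophil genes passed in each of the 5 comparisons, and genes passing went from 168 to 67 in STING-/-+CDDP against CDDP and from 10 to 5 in STING-/- against Saline.

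In CDDP against Saline hearts, Lcn2, Clec4d, Cxcl1, Cx3cr1, F13a1, Mrc1, Csf1r, C1qb and C1qc passed under every alternative run for them. Icam1, Icam2, Timp1, Fpr1 and Tlr4 did not pass without the first or without the third Saline heart, nor Icam2, Tlr4 and Timp1 without the third CDDP heart. Casp4 and Pycard did not pass without any one Saline heart, and Cxcl2 among dropped hearts passed only without the second or the third CDDP heart. Cxcl2 passed in 10 of 23 alternatives, Pycard in 11, Casp4 in 13 and Timp1 in 14 of 24, and Cma1 in 9 of 23.

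Over all tested genes, CDDP against Saline passed 2610, and 822 in a fit of those groups alone, 1106 with a fold threshold and 1241 to 2548 with a heart left out. STING-/-+CDDP against CDDP passed 168 (50 higher), 12 with no filter, 38 in those groups alone, 651 with median of ratios (275 higher), 671 with quantile scaling (314 higher), 287 (113 higher) without mitochondrially encoded genes, 9 without the 2 hearts and 11 to 388 with a heart left out. STING-/-+CDDP against STING-/- passed 129 (35 higher), 46 with no filter, 204 in those groups alone, 251 with median of ratios (128 higher), 297 with quantile scaling (166 higher), 613 with weights, 28 without the 2 hearts and 15 to 203 with a heart left out. STING-/- against Saline passed 10, 8 (2 higher, against 4) with median of ratios, 10 (3 higher) with quantile scaling, 4 with no filter or without the 2 hearts, 29 with weights and 3 to 14 with a heart left out. The interaction passed 1, 3 with either scaling, 2 with weights or without the 2 hearts and 1 to 15 with a heart left out. Median of ratios moved the median of all genes from -0.11 to 0.01 in STING-/-+CDDP against STING-/-, and no neutrophil gene changed sign under it. Depth is unknown, and with 3 hearts a group the exact test cannot go below 0.1.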
